A study of Mus musculus with 6 samples.

Results

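The BCL2 family holds the proteins that decide whether the outer membrane of the mitochondrion stays closed or opens and lets a cell die, and 10 of its genes were followed here in mouse ovarian tumours: Bcl2, Bcl2l1, Mcl1, Bcl2a1a, Bcl2a1b, Bcl2l11, Bak1, Bid, Bad and Bik. A gene was taken where an array probe set carried its symbol and no other, with the probe set of highest mean kept per gene. This gave 9 of the 10 genes, among 30142 genes on the arrays, each with 1 probe set. Bcl2a1b had no probe set of its own, because the only probe set with its symbol also carries that of Bcl2a1a. All values are log2 intensities, so that a difference of 1 is a doubling of the signal, and a probe set's level is compared between tumours and not with the level of another probe set.

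The tumours grew from ID8-VEGF cells, a mouse ovarian surface epithelial line that makes vascular endothelial growth factor, placed beneath the bursa of the ovary. Each of 3 mice, C1M3, C1M5 and C2M3, gave 1 late primary tumour and 1 late metastatic tumour, so that 3 primary arrays stood against 3 metastatic arrays. Both groups carry the same cells, 1 line is 1 source of tumour cells, and the labels used here give no site for the metastatic tumours, no strain or age of the mice and no treatment. For the primary tumour of C2M3 the source name reads C2M2, and the donor label and title, which read C2M3, were followed. Markers of ovarian surface epithelium and mesothelium were present in every tumour, with a mean over 9 genes between 10.09 and 11.58. The tumours also hold host cells, so fewer cells of a type and less RNA per cell cannot be told apart. Macrophage markers, 14 of 14 measured, had a mean of 6.55 to 8.93 in primary and 8.23 to 9.14 in metastatic tumours. Their mean was lowest in the primary tumour of C1M3. Precision is limited throughout by having 3 arrays a group.

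Survival members of the family (Bcl2, Bcl2l1, Mcl1, Bcl2a1a and Bcl2a1b) bind and restrain the others. The effector Bak1 forms pores in the mitochondrial outer membrane, from which cytochrome c escapes and starts the caspase cascade. The BH3-only genes (Bcl2l11, Bid, Bad and Bik) encode sensors that block the survival proteins or push the effectors, and ovarian tumours are known for depending on survival members such as BCL-XL and MCL1.

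Metastatic tumours had a higher level of Mcl1 and a lower level of Bcl2l1 than the primary tumour of the same mouse. In the deposited values the amounts were nearly equal in the 3 mice, and after each array was centred on its median the directions held but the amounts were uneven. Bcl2a1a varied most across the tumours, with a 4.39 span on the log2 scale, and was lowest in 1 primary tumour. The death genes differed little or in different directions between mice. No member passed the test of metastatic against primary tumours. With limma and Benjamini-Hochberg adjustment over all genes, 0 of 9 members had an adjusted p under 0.05, as did 0 of 30142 genes (0%), and the adjusted p of the members lay between 0.842 and 0.897. At an unadjusted p under 0.05 limma gave 1 member, Mcl1, where 4.21% of all genes passed in either direction. With the mouse as a block limma gave 2, Mcl1 upward, where 2.96% of all genes passed, and Bcl2l1 downward, where 1.97% did (4.93% in either direction). Without adjustment 867 of all genes passed upward and 402 downward.

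Markers of other cell types also differed between the groups. The mean of 8 adipocyte markers was 5.89, 9.45 and 11.64 in the primary tumours of C1M3, C1M5 and C2M3, and metastatic tumours read 6.03, 5.89 and 5.64. This mean differed within the mice by 0.14, -3.55 and -6.00. Alas2, the 1 red blood cell marker measured, read 8.83, 8.47 and 13.18 and then 9.58, 6.72 and 7.36. In C1M3, where the adipocyte markers differed by 0.14, other lists differed more. Macrophage markers differed there by 1.68, fibroblast markers by 1.36, smooth muscle and pericyte markers by 1.08 and endothelial markers by 0.81. The part of any of these cells in the members' differences was not tested.

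**Figure D1:**
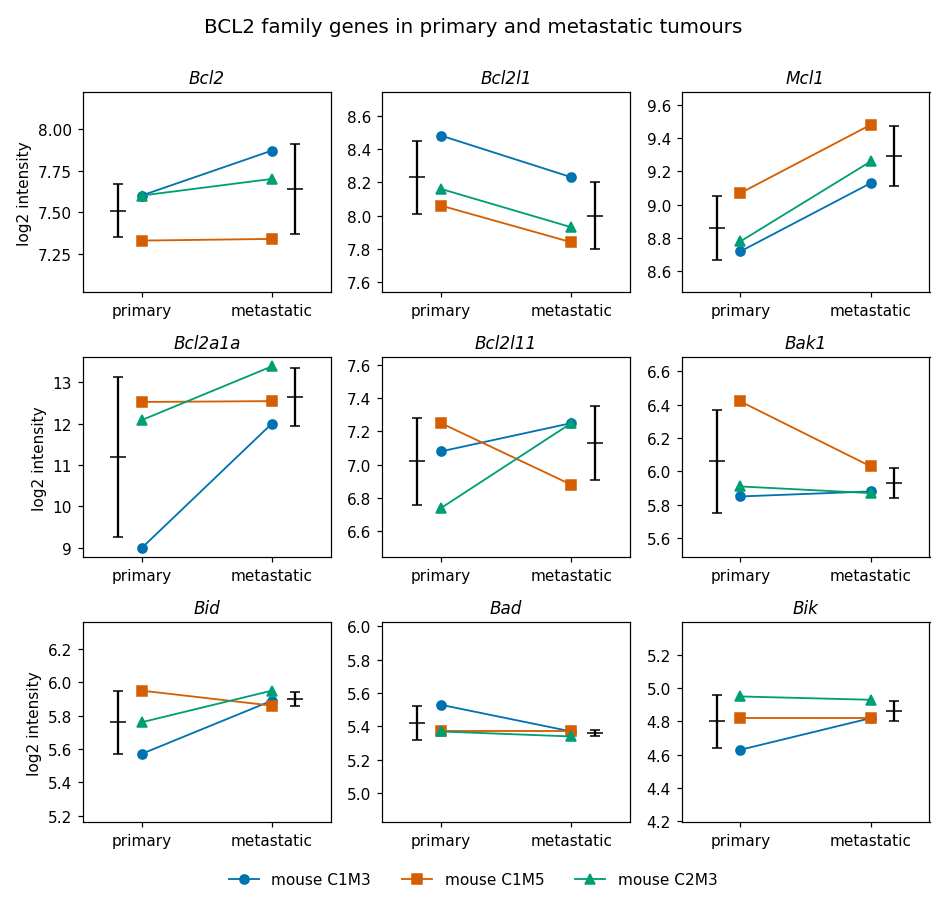
Log2 intensity (vertical axis, with a range of its own for each gene) of the 9 members in primary and metastatic tumours, where a line joins the tumours of 1 mouse and the black bars beside them give the mean and SD of 3 arrays. The lines of Mcl1 and Bcl2l1 run nearly parallel, and the primary tumour of C1M3 sits apart for Bcl2a1a, at 8.99 against 12.00 to 13.38 in the other tumours.

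Mcl1 encodes a short-lived survival protein that holds BAK1 and BIM in check. Its log2 intensity was 8.72, 9.07 and 8.78 in the primary tumours of C1M3, C1M5 and C2M3, and 9.13, 9.48 and 9.26 in their metastatic tumours. All 3 metastatic tumours lay above all 3 primary tumours, which held for 4.79% of all genes in that direction. The means were 8.86 ± 0.19 (SD, n = 3) and 9.29 ± 0.18, a difference of 0.43 (SE 0.14, 95% confidence interval 0.08 to 0.79), or 1.35-fold. Within the mice the metastatic tumour was higher by 0.41, 0.41 and 0.48. The SD of the 3 differences was 0.04, well under each of them. By limma the unadjusted p was 0.0256 and the adjusted p 0.842, and with the mouse as a block 0.0035 and 0.841. The exact permutation test of 3 against 3 gave p = 0.1, the smallest it allows.

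Bcl2l1 encodes BCL-XL and, by alternative splicing, a shorter form that promotes death, and the probe set counts both. Its levels were 8.48, 8.06 and 8.16 in the primary tumours of C1M3, C1M5 and C2M3, and 8.23, 7.84 and 7.93 in the metastatic ones. The groups overlapped, and both tumours of C1M3 were higher than the same kind of tumour in the other mice. Within the mice the metastatic tumour was lower by 0.25, 0.22 and 0.22, and 8.64% of all genes were lower in all 3 mice. The mean difference was -0.23 (SE 0.16, 95% confidence interval -0.64 to 0.18), with limma's adjusted p = 0.842. With the mouse as a block its SE was 0.05 and its unadjusted p 0.0176, with an adjusted p of 0.841 in limma.

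The even size of these differences depends on the scale of each array. Array medians over all genes moved between the tumours of a mouse, and centring each array on its median shifts every difference by 0.12 in C1M3, -0.19 in C1M5 and -0.24 in C2M3, or -0.11 for the group means. After centring, Mcl1 was higher by 0.53, 0.22 and 0.23 and Bcl2l1 was lower, at -0.13, -0.41 and -0.47, in C1M3, C1M5 and C2M3. Both genes thus kept their direction in each mouse, while the evenness between mice did not hold. Without both tumours of C2M3, whose label is in doubt, the differences of the deposited values were 0.41 for Mcl1 and -0.24 for Bcl2l1.

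**Figure D2:**
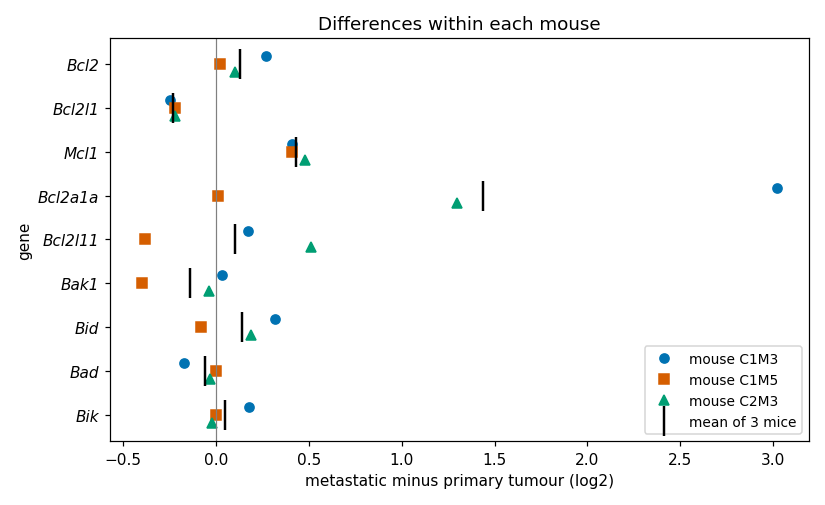
Metastatic minus primary tumour on the log2 scale (horizontal axis) for each member, with 1 symbol per mouse and a black bar at the mean of 3 mice. The 3 symbols lie together for Mcl1, at 0.41 to 0.48, and for Bcl2l1, at -0.25 to -0.22, and lie far apart for Bcl2a1a, from 0.01 to 3.02.

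Bcl2 encodes the founding survival protein of the family. Its levels were 7.60, 7.33 and 7.60 in the primary tumours of C1M3, C1M5 and C2M3, and 7.87, 7.34 and 7.70 in the metastatic tumours. Metastatic tumours were higher by 0.27, 0.02 and 0.10 within the mice, with a mean of 0.13 (SE 0.17) and limma's adjusted p = 0.858. The groups overlapped, and C1M5 had the lowest level of both kinds of tumour. After centring of the arrays the difference was 0.39 in C1M3 and -0.17 and -0.15 in C1M5 and C2M3, so the sign in single mice depended on the scale.

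The Bcl2a1 genes, also called A1, are known for survival proteins of blood and immune cells and are targets of NF-kB. The mouse carries several near-identical copies, and whether each makes a working protein was not examined here. In the primary tumours of C1M3, C1M5 and C2M3 the probe set of Bcl2a1a read 8.99, 12.52 and 12.08, and in the metastatic tumours it read 12.00, 12.54 and 13.38. The primary tumour of C1M3 lay apart from the other 5, and the metastatic tumour of C2M3 was highest. Within the mice the metastatic tumour was higher by 3.02, 0.01 and 1.30. After centring of the arrays these were 3.13, -0.18 and 1.05, so the sign in C1M5 depended on the scale. The mean difference was 1.44 (SE 1.06, 95% confidence interval -1.28 to 4.17), with limma's adjusted p = 0.842. Its SD over the 6 arrays, 1.52, was above that of 98.8% of all genes. Without the primary tumour of C1M3 the difference was 0.34 (SE 0.48), and without both tumours of that mouse 0.66.

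No probe set with a Bcl2a1 symbol repeated the values of another, and Bcl2a1b, without a probe set of its own, could not be compared alone. Of 4 probe sets with a Bcl2a1 symbol, compared in 6 pairs, none shared its value on any array with another, while 610 genes of the whole table shared all 6 values with a second gene. The probe set that carries both Bcl2a1a and Bcl2a1b read 7.33, 9.34 and 9.34 in the primary tumours of C1M3, C1M5 and C2M3, and 9.34, 9.75 and 10.64 in the metastatic ones. Metastatic tumours were higher there by 2.01, 0.40 and 1.30, a mean of 1.24, and this value cannot be given to 1 of the genes. The value 9.34 stood on 3 of its arrays. Bcl2a1d read 4.81, 6.19 and 6.42 in primary and 6.39, 6.77 and 7.42 in metastatic tumours, higher by 1.58, 0.58 and 1.0. Bcl2a1c read 4.92, 5.69 and 5.69 and then 5.61, 6.07 and 6.28, higher by 0.69, 0.38 and 0.58. In the primary tumour of C1M3 both lay below the signal of dim probe sets there, 5.85 (the 95th percentile of 1717 olfactory and vomeronasal receptor genes), so their differences in that mouse are set against a dim signal. By limma the adjusted p was 0.842 for both, and 0.841 with the mouse as a block.

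All 4 probe sets were lowest in the primary tumour of C1M3 and highest in the metastatic tumour of C2M3. Over the 6 arrays they correlated pairwise with r = 0.95 to 0.99, as a description of probe sets whose targets are alike in sequence, on tumours of 3 mice. How far a probe set of 1 copy also binds transcripts of the others was not tested. The mean of the macrophage markers took the same extremes, with primary tumours at 6.55, 8.59 and 8.93 and metastatic tumours at 8.23, 8.52 and 9.14, mice in the same order, and differed within the mice by 1.68, -0.07 and 0.20. Of the 14 markers 7 lay on every array above the 95th percentile of the receptor genes. The mean of 8 dendritic cell markers had the same lowest and highest tumours, at 5.22 and 5.72, and was higher in each mouse, by 0.36, 0.16 and 0.16, with 2 of 8 above that percentile on every array. Neutrophil markers, another source of A1, had a mean of 4.64 to 4.89 in all 6 tumours, and 0 of 10 lay above that percentile on every array. Within C1M3, C1M5 and C2M3, B and plasma cell markers differed by -0.0047, 0.38 and 0.07. Mast cell markers differed by -0.23, -0.65 and -0.11, T cell markers by 0.30, 0.06 and -0.02 and NK cell markers by -0.13, 0.10 and 0.21. Above that percentile on every array lay 1 of 7 B and plasma cell, 4 of 9 mast cell, 0 of 9 T cell and 0 of 7 NK cell markers. The primary tumour of C1M3 was also lowest for the T cell, fibroblast, and smooth muscle and pericyte lists, whose highest was the primary tumour of C2M3. The part of host cells in the Bcl2a1 values was not tested.

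**Figure D3:**
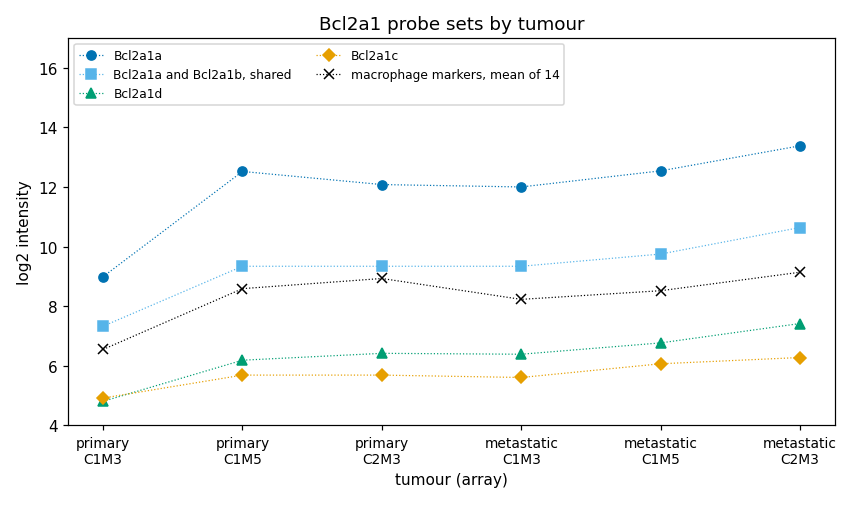
Log2 intensity (vertical axis) of the 4 probe sets with a Bcl2a1 symbol and the mean of 14 macrophage markers in each of the 6 tumours (horizontal axis), where dotted lines only join the points of 1 probe set. All 5 series are lowest in the primary tumour of C1M3 and highest in the metastatic tumour of C2M3.

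The likeness of the copies reaches into their promoters. The 250 bases upstream of the annotated start in RefSeq (GRCm38.p6) are printed for the copies named by the 2 probe sets with the widest range and for Bcl2a1d, with the letters GAGGAAGT, a core bound by the myeloid and B cell factor PU.1, in capitals. Bcl2a1a lies at chr9:88956670-88956919 on the plus strand, Bcl2a1b at chr9:89199023-89199272 on the plus strand and Bcl2a1d at chr9:88731851-88732100 on the minus strand.
Bcl2a1a: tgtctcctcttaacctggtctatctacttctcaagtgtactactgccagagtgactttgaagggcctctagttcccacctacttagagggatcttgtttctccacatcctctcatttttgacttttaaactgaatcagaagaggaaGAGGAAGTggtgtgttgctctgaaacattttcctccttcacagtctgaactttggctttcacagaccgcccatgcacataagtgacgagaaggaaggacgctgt
Bcl2a1b: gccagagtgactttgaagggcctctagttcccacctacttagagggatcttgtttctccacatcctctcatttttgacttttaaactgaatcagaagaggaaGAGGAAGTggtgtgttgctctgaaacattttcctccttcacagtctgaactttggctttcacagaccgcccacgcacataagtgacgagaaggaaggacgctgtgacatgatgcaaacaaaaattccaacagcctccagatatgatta
Bcl2a1d: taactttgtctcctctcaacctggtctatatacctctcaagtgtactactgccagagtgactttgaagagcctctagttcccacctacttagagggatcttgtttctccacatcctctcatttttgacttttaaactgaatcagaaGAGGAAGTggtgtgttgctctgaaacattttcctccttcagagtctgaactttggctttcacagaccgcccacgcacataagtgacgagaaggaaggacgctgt

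The windows of Bcl2a1a and Bcl2a1b aligned over 206 bases with 1 mismatch, 99.5% identity, since their annotated starts lie at different places. Those of Bcl2a1a and Bcl2a1d aligned over 250 positions with 95.2% identity, including a gap of 6 bases. The window of Bcl2a1c, not printed, had 94.3% identity with that of Bcl2a1a and 90.7% with that of Bcl2a1d, each over 140 positions. The capital letters begin 104 bases before the start of Bcl2a1a and Bcl2a1d and 148 before that of Bcl2a1b. The letters GAGGAAGT, on either strand, stand in 2.44% of 32851 RefSeq windows of this length, among them those of Bad and Bak1 as well as of Bcl2a1a, Bcl2a1b, Bcl2a1c and Bcl2a1d. The kappa B element of the immunoglobulin kappa enhancer, 1 form of the sequence that NF-kB binds, stands in 0.14% and in no Bcl2a1 window. The AP-1 motif TGANTCA, where N is any base, stands in 6.75%, among them Bcl2a1a, Bcl2a1b and Bcl2a1d but not Bcl2a1c. A match is a description of the letters and shows no binding. The motifs were chosen after the sequences were seen. RefSeq held windows for 9 of the 10 genes asked for.

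Bak1 encodes the pore-forming effector BAK. Its levels were 5.85, 6.42 and 5.91 in the primary tumours of C1M3, C1M5 and C2M3, and 5.88, 6.03 and 5.87 in the metastatic tumours. The primary tumour of C1M5 stood above the other 5, which lay between 5.85 and 6.03. Within the mice the metastatic tumour differed by 0.03, -0.40 and -0.04, with a mean of -0.14 (SE 0.17, limma's adjusted p = 0.858). Without that primary tumour the difference was 0.05. Bax, the other main effector, was not analysed here.

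Bcl2l11 encodes BIM, a BH3-only protein that binds all the survival members. Primary tumours of C1M3, C1M5 and C2M3 read 7.08, 7.25 and 6.74, and metastatic tumours 7.25, 6.88 and 7.25. The metastatic tumour was higher in C1M3 and C2M3, by 0.17 and 0.51, and lower in C1M5, at -0.38. The mean of 0.10 (SE 0.18, limma's adjusted p = 0.894) was well within the spread of the 3 mice (SD 0.45). Its difference turned negative under some settings, centring of the arrays among them.

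Bid encodes the link from death receptors to the mitochondrion. Primary tumours, with the mice in the same order, read 5.57, 5.95 and 5.76, and metastatic tumours 5.89, 5.86 and 5.95. The differences within the mice were 0.32, -0.08 and 0.19, a mean of 0.14 (SE 0.11, limma's adjusted p = 0.842). The metastatic tumours lay close together, with an SD of 0.04 against 0.19 in the primary tumours.

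Bad, a sensor that growth factor signals silence by phosphorylation, read 5.53, 5.37 and 5.37 in primary tumours and 5.37, 5.37 and 5.34 in metastatic tumours. The primary tumour of C1M3 was highest, and the mean difference was -0.06 (SE 0.06, limma's adjusted p = 0.842). Bik, a BH3-only gene of the endoplasmic reticulum, read 4.63, 4.82 and 4.95 and then 4.82, 4.82 and 4.93. Its mean difference was 0.05 (SE 0.10, limma's adjusted p = 0.897), with -0.05 after centring. Bik lay above the 95th percentile of the receptor genes on 1 of 6 arrays, Bad on 3, Bid on 4 and Bak1 on 5, whereas Bcl2, Bcl2l1, Mcl1, Bcl2a1a and Bcl2l11 did on all 6. The values of the 4 dim genes thus lie in or near the range of probe sets with little signal. That percentile itself moved from 4.78 in the primary tumour of C2M3 to 6.11 in the metastatic tumour of the same mouse.

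Over the family, 6 of 9 members had a higher and 3 a lower mean in metastatic tumours, where 55.1% of all genes were higher and 44.9% lower. The median difference was 0.10, against 0.02 over all genes, and the median of the absolute differences 0.14, against 0.11. A difference of 1 sign in all 3 mice was found in 4 members, higher in Bcl2, Mcl1 and Bcl2a1a and lower in Bcl2l1, where 19.7% of all genes had one. After centring, Mcl1 was higher and Bcl2l1 and Bad lower in all 3 mice, while Bcl2 and Bcl2a1a no longer had 1 sign. Groups that did not overlap were found for Mcl1 alone, and for 0 members in the lower direction, where 2.84% of all genes had such groups (7.63% in either direction). The primary tumour of C1M3 was the lowest array for 5 members, Mcl1, Bcl2a1a, Bak1, Bid and Bik, where 16.4% of all genes had it lowest. The metastatic tumour of C2M3 was the highest array for 1 member, Bcl2a1a, where 21.5% of all genes had it highest.

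Equal values on several arrays occurred in 5 of the 9 members. In Bcl2l11, Bad and Bik 3 of the 6 arrays held exactly the same value, and in Bcl2 and Bid 2 did. Among all genes 51.4% had at least 1 such tie and 28.6% had 3 or more equal arrays. A tie across the tumours of 1 mouse gives a difference of exactly 0, as in C1M5 for Bad and Bik. The cause of the ties was not tested.

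Other genes of the cell death pathway gave no call either. In limma 0 of the 68 genes of 6 lists passed at an adjusted p under 0.05, where 0% of all genes did. For the counts by direction below, 55.1% of all genes had a higher mean and 44.9% a lower one. Among the other survival genes, 2 of 4 had a higher mean and 2 a lower one, the higher being Bcl2a1d (1.05, SE 0.52) and Bcl2a1c (0.55, SE 0.29). Among other effectors and BH3-only genes 4 of 11 measured were higher and 7 lower, with a median of -0.12. Bnip3, a mitophagy receptor induced by low oxygen, differed by -0.99 (SE 0.59). Primary tumours read 8.37, 8.36 and 8.72 and metastatic tumours 7.88, 8.36 and 6.24, so that the metastatic tumour of C2M3 held most of the difference. Its relative Bnip3l had a mean difference of -0.85 (SE 0.49), with -1.04, -0.12 and -1.38 in the 3 mice.

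Downstream of the mitochondrion, 8 of 13 measured genes of the apoptosome and the caspases had a higher mean and 5 a lower one, with a median of 0.01. Casp12, a caspase of the endoplasmic reticulum, differed by 0.46 (SE 0.22) and the executioner Casp6 by -0.29 (SE 0.50). Of the inhibitor of apoptosis (IAP) genes 7 of 8 were higher, where 55.1% of all genes were. Their median was 0.20, with differences between -0.16 for Birc5 and 0.42 for Naip6 (SE 0.21). Centring the arrays shifts each by -0.11, more than the 0.05 of Birc2 and the 0.04 of Birc3. Xiap, Birc2, Birc3, Birc6 and Naip5 differed by 0.50, 0.16, 0.28, 0.63 and 0.71 in C1M3. In the other mice these genes differed by 0.12 at most, and they were picked after their values were seen. The remaining IAP genes differed in the other mice as well. In C1M3, C1M5 and C2M3 Naip6 differed by 0.93, 0.13 and 0.21, Naip2 by 0.31, 0.00 and 0.34, and Birc5 by -0.37, 0.16 and -0.27. Naip5 differed by 0.29 (SE 0.21). NAIP proteins sense bacterial proteins. In the primary tumour of C1M3 both genes, at 5.37 for Naip6 and 4.82 for Naip5, lay below the receptor genes' 95th percentile of 5.85. The Naip genes are close copies of each other, so probe sets may share transcripts.

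Death receptor genes had 6 of 12 higher and 6 lower, with a median of -0.02. Fas, the receptor of Fas ligand, read 8.50, 5.01 and 5.49 in primary tumours and 5.55, 7.15 and 8.08 in metastatic ones, mice in the same order. The metastatic tumour was lower in C1M3, at -2.95, and higher in C1M5 and C2M3, by 2.14 and 2.59, which left a mean of 0.59 (SE 1.18). Tnfrsf10b, the mouse TRAIL receptor, differed by -0.42 (SE 0.26). Among genes that act on the members, 8 of 20 were higher and 12 lower, with a median of -0.11. Myc, which sensitises cells to death, differed by -0.63 (SE 0.33) and the channel gene Vdac3 by -0.58 (SE 0.36). At an unadjusted p under 0.05, which 2.88% of all genes passed upward and 1.33% downward, limma gave Usp9x (0.44, SE 0.17), whose product removes ubiquitin from MCL1, and Foxo3 (-0.35, SE 0.09), a factor that drives BIM. With the mouse as a block, limma's unadjusted p was 0.013 for Foxo3 and 0.105 for Usp9x, which thus no longer passed. In that limma fit Bcl2a1c (unadjusted p = 0.00802), Bcl2a1d (0.0214), Vdac3 (0.0242) and Rela (0.0495) passed, where 2.96% of all genes did upward and 1.97% downward. Usp9x, Foxo3 and Rela were named after their values were seen.

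**Figure D4:**
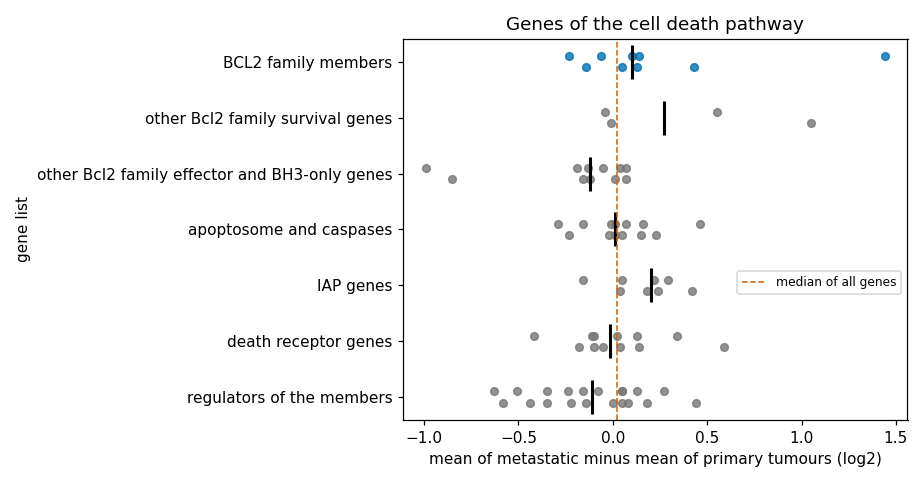
Difference of the group means, metastatic minus primary tumours on the log2 scale (horizontal axis), for the 9 members and 6 lists of other cell death genes, 1 point per gene, with a black bar at the median of each list and a dashed line at 0.02, the median of all genes. The medians lie between -0.12 and 0.27, and the points farthest out are Bcl2a1a at 1.44, Bcl2a1d at 1.05 and Bnip3 at -0.99.

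The genes whose pattern over the 6 arrays was most like that of a member were sought for the 3 members with the widest spread. For Bcl2a1a they were Sting1 and Cxcl16 (r = 0.995 each), Man2b1 and Ifnar2 (r = 0.994 each), and 130 of 2048 genes compared had r over 0.9. For Bcl2l1 they were Anapc5 (r = 0.993), Emx2 (r = 0.992), Vps37b (r = 0.988) and Colca2 (r = 0.986), with 69 of 2049 over 0.9. For Mcl1 they were Pigf (r = 0.986), Olfr1383 (r = 0.971), Aox3 (r = 0.939) and Olfr535 (r = 0.934), with 11 of 2049 over 0.9. The 6 points of each correlation are tumours of 3 mice and share their arrays, so that these values describe the arrays.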

How the data were processed

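Total RNA from 6 frozen tumours was hybridised to Affymetrix arrays, 1 a tumour. The deposited table holds log2 values per probe set, already summarised. RMA and Transcriptome Analysis Console are the tools listed in the submitters' processing notes, without versions, and a genome build is not given in the sources used here. Of 65956 non-control probe sets 30604 carried 1 gene symbol and 2146 several. Symbols of 827 were updated by Entrez Gene identifier, and 30142 genes were tested with no filter on dim genes. Groups came from the tissue label and pairs from the donor label.

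The contrast of metastatic with primary tumours was fitted in limma 3.58.1 (R 4.3.3), two-sided, with tissue as the only term, Benjamini-Hochberg adjustment over all genes and a threshold of 0.05. SE is limma's moderated standard error. The tumours of a mouse come from 1 animal, so a second fit took the mouse as its block. Deviations from the group means correlated between the 2 tumours of a mouse with r = -0.05, 0.35 and 0.07 in C1M3, C1M5 and C2M3. The highest r of each primary tumour with a metastatic tumour of another mouse was 0.13, -0.02 and 0.09. Only in C1M5 was the own pair clearly the more alike, and in C2M3 the values were nearly equal. The pairs, and with them the SE and p of the block fit, rest on the donor label. The fit was tested on simulated data with independent noise and no pairs, unlike the tumours here. It called 50 of 100 genes changed 2-fold and 82 of 100 changed 4-fold. Exact permutation cannot go below p = 0.1 for 3 against 3, or 0.25 for 3 pairs. Promoters were aligned with Biopython 1.88. Alternatives were another scaling, quantile normalization, array weights, eBayes settings, a filter on dim genes, the mean of probe sets, and leaving out arrays or mice. Named in the text are all members, the 2 genes of each other list with the largest difference whose mean in the higher group was above the median of all genes, and 4 genes most like each of 3 members among genes with an SD of at least 0.5, without predicted or clone names and small RNAs. The members and lists were chosen with earlier results of these data known.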

Additional observations from a re-analysis of the deposited data

How the results depend on the processing

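In the 17 alternatives to the processing, 0 genes had an adjusted p under 0.05 in limma, the paired fit with the mouse as a block among them, and the lowest adjusted p of a member was 0.286 (Mcl1, with the block and without mouse C1M3, added after the data were seen). Without adjustment, 867 genes passed upward and 402 downward, 68.3% of them higher, against 453 and 1123, 28.7% higher, with each array centred, 680 and 558, 54.9% higher, with quantile normalization of the gene table, 2179 and 1001 with array weights, and 397 and 200 among the genes above the median level. Without both tumours of C1M3 they were 3185 and 906 (3350 and 1102 with the block), without those of C1M5 626 and 314, and without those of C2M3 506 and 583. Leaving out 1 array gave 475 to 1929 higher and 204 to 859 lower genes. Mcl1 (0.33 to 0.54), Bcl2l1 (-0.35 to -0.11), Bcl2a1a (0.34 to 2.16), Bcl2, Bid and Bad kept their direction in every alternative run. Of 152 member results 10 turned sign. Bcl2l11 was at -0.0028 with centring, -0.04 with array weights and -0.10 without both tumours of C2M3, and between -0.04 and 0.23 leaving out 1 array. Bik was at -0.05 with centring, -0.04 with quantile normalization, and -0.01 without mouse C1M3, with the block or without it, and between -0.03 and 0.13 leaving out 1 array. Bak1 lay between -0.24 and 0.05 leaving out 1 array. The median difference of the members was -0.0028 with centring and 0.01 with array weights. The cause of these changes was not tested.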

Other observations

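Pmaip1, which encodes the BH3-only protein NOXA that targets MCL1, followed the mouse more than the kind of tumour. Its log2 intensities were 9.15 in the primary and 7.99 in the metastatic tumour of C1M5, against 4.66 to 5.82 in the tumours of C1M3 and C2M3. The gene was chosen after its values were seen, with 1 mouse set against 2 and no test. Bok, which encodes another pore-forming family member, differed within C1M3, C1M5 and C2M3 by 0.50, -0.30 and -0.78, so that its sign differed between mice.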
